A study of Mus musculus with 14 samples.

Results

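The regions described here are 3222 RNF2 peaks of mouse embryonic stem cells that were listed in the second BAP1 knockout library and lay where neither wild-type library had a peak. They were chosen by a rule on the peak lists themselves: a peak of the second BAP1 knockout list on chromosomes 1 to 19, X or Y, with no overlap of even 1 bp with a peak of either wild-type list, and more than 20 kb from the span of every protein-coding gene in RefSeq GRCm38.p6. They made up 8.08% of the 39872 peaks of that list, 16.4% of its 19690 peaks without wild-type overlap and 60.0% of its 5368 distal peaks. Because the rule used presence in one list and absence from others, the number of new distal peaks is a description of these lists, and no test was made on it. Of all peaks of the list, 49.4% had no wild-type overlap, which is part of the rule and is given as background only.

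RNF2, also called RING1B, is a catalytic subunit of Polycomb repressive complex 1 and places ubiquitin on histone H2A. BAP1 is the enzyme that removes this ubiquitin. In embryonic stem cells RNF2 is best known from CpG islands of silenced developmental genes.

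The series held 14 samples, of which 7 were ChIP libraries and 7 their inputs. RNF2 ChIP was made in BAP1 knockout cells (2 libraries), RNF2 knockout cells (1 library) and cells labelled RNF2-WT (2 libraries); BAP1 ChIP was made in cells labelled BAP1-C91A, a form in which a cysteine of BAP1 is replaced by alanine (1 library, with an additional disuccinimidyl glutarate crosslink), and in BAP1 knockout cells (1 library). All cells were of C57BL/6 background and all, wild type included, had received 4 days of 4-hydroxytamoxifen (100 nM) together with emricasan (10 µM), which blocks caspases. The labels name neither clones nor separate cultures, so agreement between libraries measures only the spread between these samples, and peak lists hold no expression by which the cell type could be checked. The second BAP1 knockout and second wild-type libraries held 139 and 149 M ChIP tags and were called with a fixed fragment length of 100 bp; the first libraries held 54.1 and 58.4 M and were called with fragment lengths of 323 and 297 bp. Depth and calling settings thus differ together between first and second libraries. In RNF2 knockout cells 0 peaks were listed from 119 M tags. A list gives no value where no peak was called, so a place just under the threshold and a place with no RNF2 read alike.

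A few new distal peaks lay on the start of an annotated long noncoding RNA, and for these the underlying sequence could be shown. The 5 windows printed are those with the highest fold enrichment among new distal peaks at such starts. Each runs from 250 bases before to 50 bases after the annotated start, 5′ to 3′ on the strand of the gene, from RefSeq GRCm38.p6, with every CG dinucleotide in capitals. Gm46204 lies on the plus strand at chr10:121504861-121505160, Gm30149 on the minus strand at chr7:73608691-73608990, 4930578M01Rik on the plus strand at chr15:98985715-98986014, Gm34418 on the minus strand at chr11:117483003-117483302 and Gm46609 on the minus strand at chr17:87613494-87613793.
Gm46204: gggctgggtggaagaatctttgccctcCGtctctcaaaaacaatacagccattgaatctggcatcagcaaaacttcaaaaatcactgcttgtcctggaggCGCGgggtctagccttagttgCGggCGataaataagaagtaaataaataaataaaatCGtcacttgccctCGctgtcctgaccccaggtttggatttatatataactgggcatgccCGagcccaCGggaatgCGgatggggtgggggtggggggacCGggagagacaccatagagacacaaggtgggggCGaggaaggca
Gm30149: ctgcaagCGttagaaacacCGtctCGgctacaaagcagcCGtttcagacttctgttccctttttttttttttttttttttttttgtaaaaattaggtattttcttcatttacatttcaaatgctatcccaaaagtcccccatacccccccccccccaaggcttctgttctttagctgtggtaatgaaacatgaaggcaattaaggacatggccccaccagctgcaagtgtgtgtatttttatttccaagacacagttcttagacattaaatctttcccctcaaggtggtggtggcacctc
4930578M01Rik: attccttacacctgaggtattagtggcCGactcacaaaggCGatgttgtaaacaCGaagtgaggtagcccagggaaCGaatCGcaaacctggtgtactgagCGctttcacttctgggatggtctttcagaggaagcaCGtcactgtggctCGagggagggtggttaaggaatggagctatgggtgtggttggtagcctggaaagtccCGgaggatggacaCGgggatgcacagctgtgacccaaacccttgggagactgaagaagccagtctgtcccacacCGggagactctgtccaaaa
Gm34418: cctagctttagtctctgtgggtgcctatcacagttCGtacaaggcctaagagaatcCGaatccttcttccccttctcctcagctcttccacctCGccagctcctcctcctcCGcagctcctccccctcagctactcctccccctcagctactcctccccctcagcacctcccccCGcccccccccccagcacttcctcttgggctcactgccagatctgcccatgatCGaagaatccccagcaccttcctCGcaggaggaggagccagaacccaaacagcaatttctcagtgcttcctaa
Gm46609: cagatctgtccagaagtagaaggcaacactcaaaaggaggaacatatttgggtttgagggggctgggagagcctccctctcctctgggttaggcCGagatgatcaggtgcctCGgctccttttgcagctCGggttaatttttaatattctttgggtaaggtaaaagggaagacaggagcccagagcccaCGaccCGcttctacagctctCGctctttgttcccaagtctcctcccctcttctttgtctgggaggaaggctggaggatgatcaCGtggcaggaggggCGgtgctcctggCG
The windows held 12, 4, 11, 7 and 9 CG dinucleotides in the order printed, so none of them is a dense run of CpG. The peaks over them had fold enrichments of 10.4, 8.59, 7.27, 7.02 and 6.06. Fold enrichment is the authors' value for a peak over its local background and is used here only to describe and rank peaks within a list.

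Most new distal peaks were narrow and low. Their width had a median of 172 bp and ranged from 100 to 2541 bp, and 1927 of them, 59.8%, were under 200 bp. The 2146 distal peaks of the same list that did overlap a wild-type peak, called shared distal peaks here, had a median width of 621 bp and reached 21819 bp. In all, the new distal peaks covered 795 kb and the shared distal peaks 2126 kb. Median fold enrichment was 2.97 in new distal peaks (range 1.43 to 11.3) and 4.30 in shared distal peaks (highest 23.9). New peaks within 20 kb of a protein-coding gene were of the same kind, with a median width of 176 bp and a median fold enrichment of 2.94. The low level is thus shared by new peaks near and far from genes, and since absence from the wild-type lists chose both classes, no test of it was made.

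**Figure D1:**
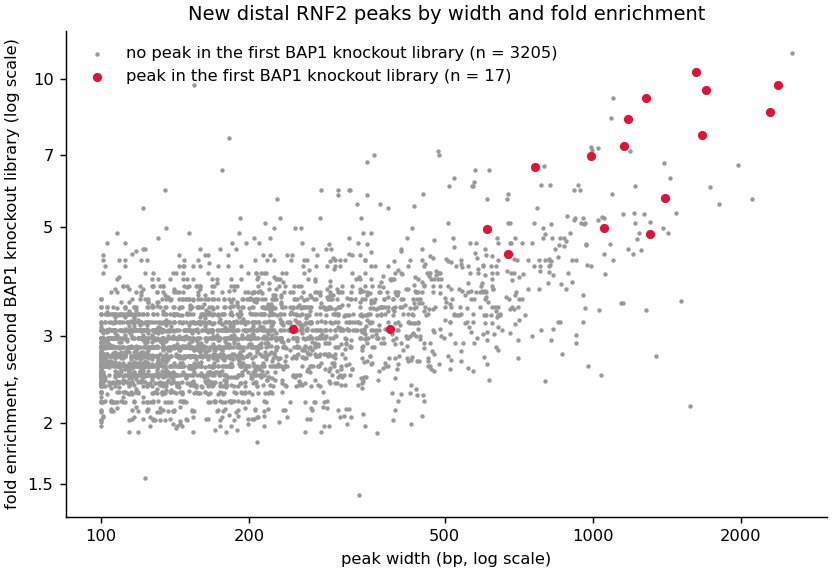
Width in bp (horizontal, log scale) and fold enrichment in the second BAP1 knockout library (vertical, log scale) of each of the 3222 new distal RNF2 peaks. Grey points have no peak in the first BAP1 knockout library, and the 17 red points do; most red points are among the wide peaks with high fold enrichment at the upper right.

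The exceptions were wide peaks of higher enrichment. Of the new distal peaks, 91 had a fold enrichment over 5, with a median width of 824 bp, and 53 were 1000 bp wide or more. The highest and widest of all lay at chr15:98976522-98979062, 2541 bp wide with a fold enrichment of 11.3. It overlapped the long noncoding RNA gene B430209F14Rik, 23.0 kb from Tuba1a and 50.8 kb from Tuba1c, which encode alpha tubulins. The first BAP1 knockout library had no peak there, and the nearest peaks of the second and first wild-type libraries were 23.2 and 76.4 kb away. Also among the 5 widest were chr15:36649579-36651687 (2109 bp, fold enrichment 5.70), between Pabpc1, a poly(A)-binding protein gene, and Ywhaz, and chr12:86831661-86833629 (1969 bp, 6.68), between Lrrc74a and Irf2bpl. The 4930578M01Rik start printed above lay under another new distal peak close to the highest one.

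Tsix, the antisense RNA that represses Xist on the same X chromosome, carried a pair of peaks of the highest rank. The peak at chrX:103447453-103448737 had a fold enrichment of 9.15 in the second BAP1 knockout library and 3.69 in the first. Its neighbour at chrX:103449388-103450567 had 8.32 in the second and 3.22 in the first. No wild-type peak lay close by: from that neighbour their nearest peaks lay 31.0 kb (second) and 42.9 kb (first) away. In all, 3 new distal peaks overlapped an antisense RNA gene. The X chromosome held 32 new distal peaks, 0.993% of them, against 1.91% of shared distal peaks and 1.37% of the whole list.

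Lncenc1, a long noncoding RNA named for its expression in embryonic stem cells, carried the peak at chr13:97438244-97439938. It had a fold enrichment of 9.52 in the second BAP1 knockout library and 2.49 in the first. The nearest wild-type peaks were 156 kb (second) and 513 kb (first) away, and within 50 kb to either side the second BAP1 knockout library held 9 peaks, all new distal, while both wild-type libraries held none. Enc1, an actin-binding protein gene, and Arhgef28 flanked it at 185 and 459 kb.

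Gm46204 and Gm30149, whose starts are printed above, were also at the top. The Gm46204 peak, chr10:121504640-121506260, had a fold enrichment of 10.4 in the second BAP1 knockout library and 2.47 in the first, and lay between Rassf3 and Tbk1, a kinase gene of innate immune signalling. The second wild-type library had a peak only 0.430 kb away, so it borders a place that wild-type cells also occupied. The Gm30149 peak, chr7:73606455-73608744, had 8.59 in the second BAP1 knockout library and 3.54 in the first, with the closest peak of the second wild-type library 3.21 kb away.

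The remaining peaks of the 10 highest had less in common. The peak at chr17:83545330-83547710, over the noncoding gene Gm41635 between Cox7a2l, a respiratory chain assembly gene, and the potassium channel gene Kcng3, had a fold enrichment of 9.75 in the second BAP1 knockout library and 4.44 in the first. Those at chr11:117589218-117590319, between Septin9 and Tnrc6c (9.13), and chr2:168845276-168846364, between Sall4 and Zfp64 (8.32), had no peak in the first. The peak at chr8:123598036-123598190 (9.74) was only 155 bp wide and overlapped a gene of the 5S ribosomal RNA, Rn5s. This gene is repeated in near-identical copies, and the sources used here do not give how reads that match several copies were placed, so its value is uncertain.

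The first BAP1 knockout library, which is shallower, repeated few of the new distal peaks. A peak of that library overlapped 17 of 3222 (0.528%, Wilson 95% interval 0.330 to 0.843), against 460 of 2146 shared distal peaks (21.4%, 19.8 to 23.2) and 18.02% of all peaks of the list. These intervals, like all shares here, cover counting error only, and neighbouring peaks are not independent. New peaks were chosen by absence from wild type and shared peaks by presence in it. The first BAP1 knockout list held 520 distal peaks, of which only 26 overlapped no wild-type peak. That left little room for new distal peaks to be repeated, at any height, so these shares do not compare the classes on equal terms. The share went with the height of the peak. None of the 550 new distal peaks with a fold enrichment of 2.5 or less and none of the 1224 between 2.5 and 3 were repeated, against 8 of 21 over 7 (38.1%, 20.8 to 59.1). Over a fold of 7, 390 of 512 shared distal peaks (76.2%, 72.3 to 79.7) and 69 of 158 new peaks near genes (43.7%, 36.2 to 51.5) were repeated. In that open-ended bin the intervals of new distal and new near-gene peaks overlapped and that of shared distal peaks lay above both, but heights were not matched, with maxima of 11.3 in new distal, 23.9 in shared distal and 16.9 in new near-gene peaks. Between folds of 5 and 7 the intervals of new distal (3 of 70, 1.47 to 11.9%) and shared distal peaks (45 of 345, 9.89 to 17.0%) overlapped, as they did between 3 and 4 and between 4 and 5. In the lowest bins they did not overlap. At a fold of 2.5 or less, 7 of 110 shared distal peaks (3.12 to 12.6%) were repeated, above the Wilson upper limit of 0.694% for new distal peaks. Between 2.5 and 3, 3 of 296 were (0.345 to 2.94%), above an upper limit of 0.313%. The median width over a fold of 7 was 1102 bp in new distal, 1808 bp in shared distal and 1451 bp in new near-gene peaks. The part of height, width and the choice by wild-type overlap in the difference was not tested.

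**Figure D2:**
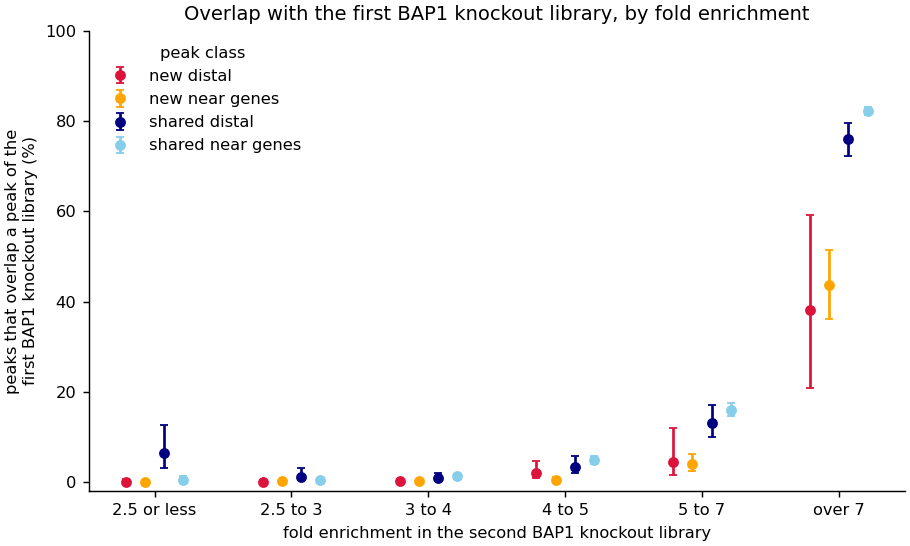
Share of peaks of the second BAP1 knockout list that overlap a peak of the first BAP1 knockout list, in percent (vertical), by fold enrichment in the second library (horizontal), for the 4 peak classes. Points are shares and bars are Wilson 95% intervals. Among peaks over a fold of 7, new distal peaks stand at 38.1% and shared distal peaks at 76.2%; below a fold of 4 every class is under 7%.

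The 17 repeated peaks had a median width of 1180 bp, and 11 of them had a fold enrichment over 5. Their fold enrichment ranged from 3.10 to 10.4 in the second BAP1 knockout library (median 6.98) and from 2.47 to 4.62 in the first (median 3.54). An lncRNA or antisense RNA gene lay under 8 of them, the neighbouring pair at Tsix included. Over all new distal peaks, 27.8% lay over an lncRNA gene, and the difference was not tested. Only 1, at Gm46204, was within 1 kb of a wild-type peak. Beside those at Tsix, Lncenc1, Gm46204, Gm30149 and Gm41635, the repeated peaks had varied neighbours. The peak at chr5:119706390-119707382, 21.7 kb from Tbx3, a T-box factor of the pluripotency network and of limb and heart development, had a fold enrichment of 6.98 in the second library and 3.77 in the first. That at chr2:103819019-103819781, over the noncoding gene Gm13880 21.4 kb from Caprin1 and 138 kb from Lmo2, a LIM-only factor of blood development, had 6.62 and 3.40 in the second and first libraries. That at chr4:148719125-148720281, 42.0 kb from Gm572 and 84.1 kb from the zinc finger gene Casz1, had 7.30 in the second and 2.83 in the first.

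The peak at chr13:44705767-44706012 was 24.8 kb from Jarid2, a subunit gene of Polycomb repressive complex 2, with 3.10 in the second library and 2.85 in the first. The peak at chr15:55279699-55281364, between Deptor, an inhibitor of mTOR, and the collagen gene Col14a1, had 7.68 in the second and 3.62 in the first. Among the repeated peaks, the highest value of the first library, 4.62, belonged to chr8:8984374-8985426, with 4.99 in the second. That peak lay between Arglu1 and Fam155a and 222 kb from any wild-type peak. The rest lay between Srrm4 and Suds3, Phyhipl and Bicc1, Nudt4 and Eea1, Septin9 and Tnrc6c, and Zfp217 and Bcas1. Taken alone and by the same rule, the first BAP1 knockout list held 26 new distal peaks among 7946, of which 22 (84.6%) overlapped a peak of the second BAP1 knockout list, below the 99.9% of all peaks of the first list that did.

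New distal peaks lay at all distances from wild-type RNF2. The nearest wild-type peak was within 0.5 kb for 595 of them (18.5%), within 1 kb for 783 (24.3%), within 5 kb for 1140 (35.4%), within 10 kb for 1341 (41.6%) and within 50 kb for 2253 (69.9%), with a median of 19.7 kb. The 783 within 1 kb had a median width of 156 bp and a median fold enrichment of 2.86, with 9 over a fold of 5. The 1470 between 1 and 50 kb (45.6%) had a median width of 179 bp and a median fold enrichment of 2.97, with 55 over a fold of 5. The 969 farther than 50 kb had a median width of 178 bp and a median fold enrichment of 2.97, with 27 over a fold of 5. The median height thus differed little between these distances. Of the 17 repeated peaks, 1 was within 1 kb of a wild-type peak, 9 lay between 1 and 50 kb and 7 lay farther than 50 kb. Among new peaks near genes, 6454 of 16468 (39.2%) were within 1 kb of a wild-type peak.

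**Figure D3:**
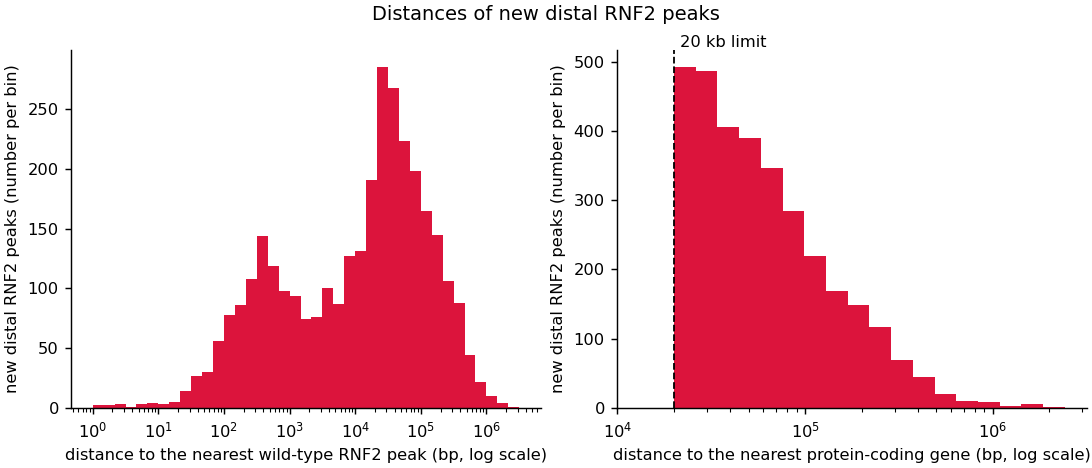
Number of new distal RNF2 peaks (vertical) by distance in bp on a log scale (horizontal) to the nearest wild-type RNF2 peak (left) and to the nearest protein-coding gene (right). The left panel has a smaller mound under 1 kb, where 783 peaks lie, and a larger one above 10 kb; the dashed line in the right panel is the 20 kb limit of the rule.

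The nearest protein-coding gene was a median of 51.5 kb away from new distal peaks and 50.5 kb from shared distal peaks, close to each other. Within 100 kb of a gene were 2415 new distal peaks (75.0%). The peak farthest from any gene, at chr14:90345823-90346042 between the protocadherin genes Pcdh20 and Pcdh9, lay 1874 kb away, with a fold enrichment of 3.45. At the 20 kb limit, the members just inside were chr7:28488256-28488393, 20014 bp from Lrfn1 (fold enrichment 2.81), and chr5:113337022-113337264, 20030 bp from Aym1 (2.21). Just outside, and so not counted, were chr10:78372478-78372828, 19981 bp from Agpat3 (3.52), and chr3:34672439-34672932, 19978 bp from Sox2 (2.36).

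Some new distal peaks stood alone and others in groups. Another new distal peak lay within 1 kb of 1449 of them (45.0%) and within 10 kb of 1942 (60.3%), against 36.2% and 49.2% for shared distal peaks and their own class. The new distal class holds more peaks, 3222 against 2146, which alone brings neighbours closer, so these shares do not compare clustering. Joined across gaps of up to 10 kb, they formed 1976 loci, of which 1280 held a single peak, 260 held 3 or more and the largest held 19. They had 1496 different nearest genes, 131 of which were nearest to at least 5 new distal peaks. Those 131 took in 958 peaks, 29.7% of the total.

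The densest 100 kb stretch lay on chromosome 18 between the zinc finger genes Zfp236 and Zfp516 and held 24 new distal peaks, with fold enrichments of 2.14 to 7.25. Over the same 100 kb the second BAP1 knockout library held 27 peaks in all and the first none, while the second wild-type library held 4 and the first none. Next came a run of 21 new distal peaks (2.55 to 8.59) over 56.0 kb between the chromatin remodeller gene Chd2 and Fam174b, at chr7:73562357-73618336. In that span there were 26 and 3 peaks in all in the second and first BAP1 knockout libraries and 13 and 1 in the second and first wild-type libraries. The third, at chr3:96321836-96410736 between Fcgr1 and BC107364, held 19 (2.21 to 5.82) among a cluster of transfer RNA genes. The 100 kb that begin there held 27 and 4 peaks in all in the second and first BAP1 knockout libraries and 15 and 0 in wild type. Transfer RNA genes also have near-identical copies, with the same uncertainty as for Rn5s.

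Some genes were the nearest protein-coding gene of long runs of new distal peaks. Zfp516 was the nearest gene of 22, Chd2 of 21, the proto-oncogene Mycn of 19, the cytoskeletal GTPase gene Septin9 of 18 and Enc1 of 17. Med13l, a subunit gene of the Mediator kinase module, followed with 16, Tnrc6c, a gene of microRNA-mediated silencing, with 15 and Ly86 with 14. Cstad, Jarid2, the kidney and eye factor Pax2, the neural factor Sox1 and the pluripotency factor Sox2 had 12 each. These genes were picked by that number.

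Beside Mycn the 19 peaks spread over 263 kb, with fold enrichments of 1.92 to 3.80. In that span the second and first BAP1 knockout libraries held 24 and 0 peaks, and the second and first wild-type libraries 4 and 0. Between Septin9 and Tnrc6c, 33 new distal peaks lay along the interval. The 18 nearest Septin9 covered 87.8 kb, a span with 20 peaks in the second BAP1 knockout library and 2 in the second wild-type library. The 15 nearest Tnrc6c covered 103 kb, with 15 peaks in the second BAP1 knockout library and 0 in either wild-type library. Beside Jarid2, 12 low peaks (2.04 to 3.33) spread over 296 kb, and 1 of them was repeated in the first BAP1 knockout library. Since each span was drawn around new distal peaks, a higher number in the second BAP1 knockout library is part of how the spans were made.

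**Figure D4:**
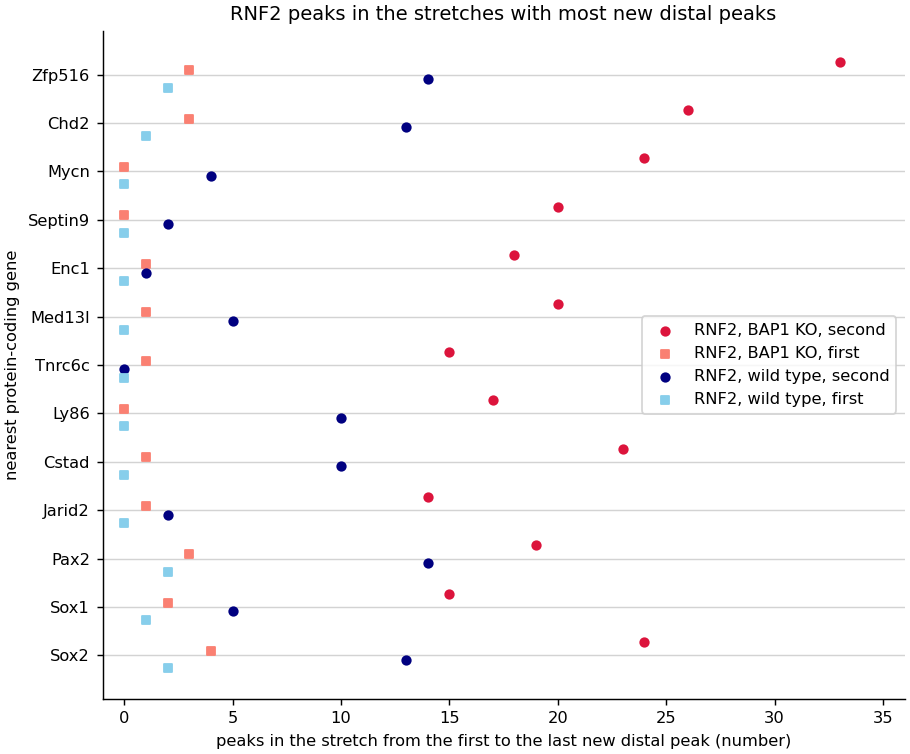
Number of RNF2 peaks (horizontal) in the stretch from the first to the last new distal peak nearest to each of 13 genes (rows), for the second and first BAP1 knockout libraries and the second and first wild-type libraries. At Enc1 the second BAP1 knockout library holds 18 peaks, and the second wild-type library 1; at Pax2 the numbers are 19 and 14.

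**Figure D5:**
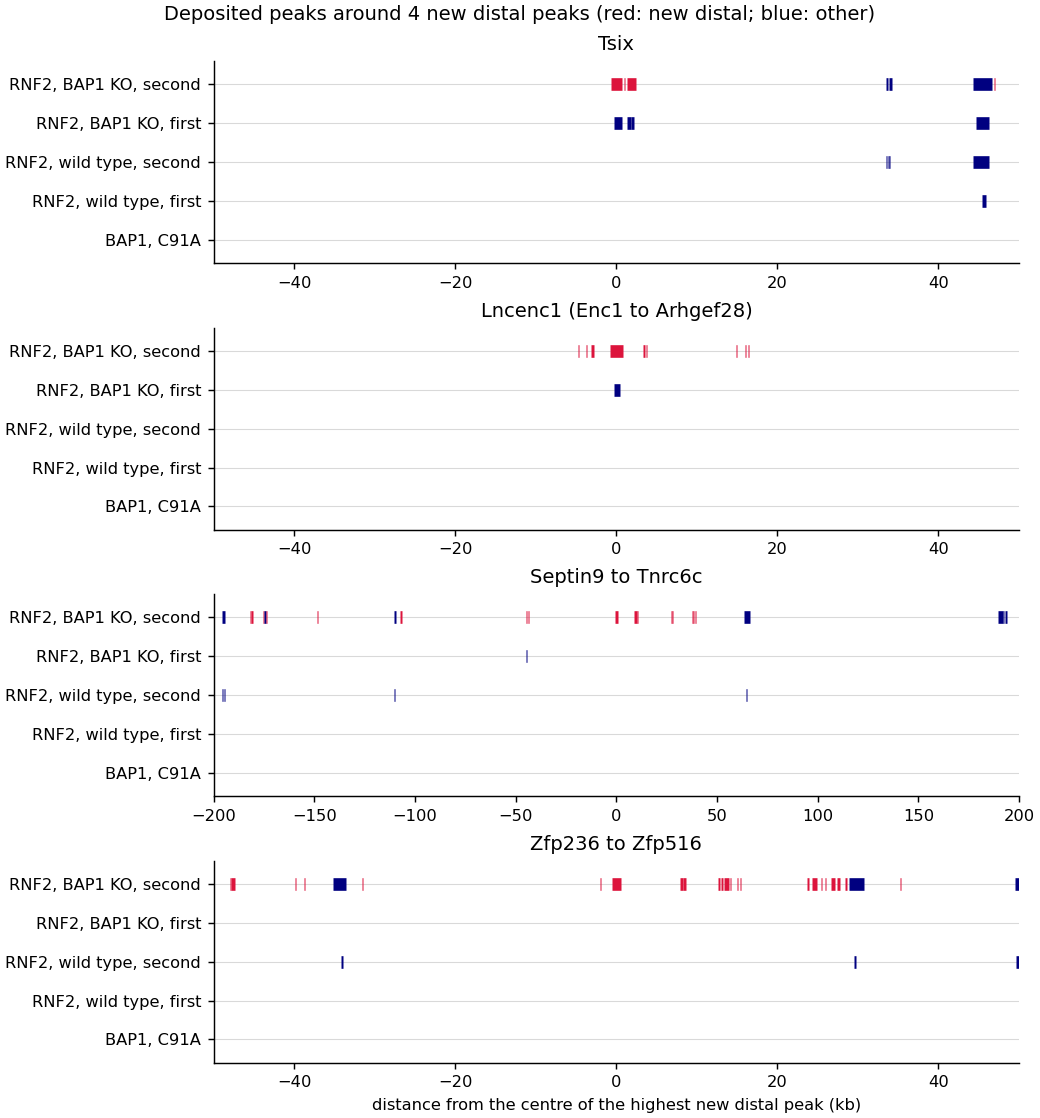
Deposited peaks of 5 libraries (rows) around the highest new distal peak in 4 places, by distance from its centre in kb. Red bars are new distal peaks and blue bars other peaks, and bars that lie close together merge at this scale. The pair of high Tsix peaks and the highest Lncenc1 peak appear in both BAP1 knockout rows and in neither wild-type row. Between Septin9 and Tnrc6c and between Zfp236 and Zfp516 few of the red bars have a bar below them in another row.

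Pluripotency genes were the nearest gene of a small number of new distal peaks. Of a list of 20 such genes, 6 were the nearest gene of 29 new distal peaks (0.900%, 0.627 to 1.29), against 12 shared distal peaks (0.559%, 0.320 to 0.975), and the intervals overlap. These 20 genes are 0.0918% of protein-coding genes, and 0.764% of all distal peaks of the list had one as nearest gene. Sox2 had 12, spread over 452 kb, chr3:34443750-34895385, with a median width of 473 bp. The highest pair of these lay at the far end, 242 kb from Sox2, at chr3:34894101-34894668 (6.06) and chr3:34894770-34895385 (6.53). In the whole span the second and first BAP1 knockout libraries held 24 and 4 peaks and the second and first wild-type libraries 13 and 2, and none of the 12 was repeated in the first BAP1 knockout library. Klf5, a Krüppel-like factor, and Tbx3 had 5 each. Dppa3, which protects methylation in the early embryo, had 4, the highest at chr6:122667082-122667879 (4.28). Tcl1, an Akt coactivator gene, had 2 and Sall4 had 1. The other 14 genes of the list were nearest to none.

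Developmental transcription factor genes, the textbook neighbours of RNF2, were the nearest gene of 169 new distal peaks (5.25%, 4.53 to 6.07) and of 158 shared distal peaks (7.36%, 6.33 to 8.55), while they are 1.01% of protein-coding genes. The 169 belonged to 61 of the 220 genes of that list, led by Pax2, Sox1 and Sox2 with 12 each and Dlx2 with 10. Genes in this paragraph were grouped by the first letters of their symbols, so Fgfbp1 was counted with the ligands. Signalling ligand genes, grouped in this way, were nearest to 22 new distal peaks (0.683%) and 19 shared distal peaks (0.885%), with Wnt7b at 7 and Wnt10a at 6. Zinc finger genes were nearest to 109 (3.38%) and 64 (2.98%), and cadherin and protocadherin genes to 25 (0.776%) and 5 (0.233%), 10 of the 25 at Pcdh1. Olfactory and vomeronasal receptor genes, silent outside sensory neurons, make up 6.72% of genes and were nearest to 18 (0.559%) and 10 (0.466%). A nearest gene is a neighbour, and genes with wide empty flanks have more room for distal peaks; the share of genes does not allow for that.

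BAP1 itself was hardly listed at these places. A BAP1 peak of C91A cells overlapped 1 of 3222 new distal peaks (0.0310%, 0.00548 to 0.176), against 16 of 2146 shared distal peaks (0.746%, 0.459 to 1.21), 87 of 16468 new peaks near genes (0.528%, 0.429 to 0.651) and 1.93% of all peaks of the list. That 1 peak, chr19:29673080-29673223 near Ermp1 and Mlana, had a fold enrichment of 2.85 for RNF2 and 4.06 for BAP1, and lay 0.112 kb from a wild-type RNF2 peak. The C91A library held 415 M tags and 2395 peaks, of which only 43 were distal, so few overlaps were possible for any distal class. Over all distal RNF2 peaks of the list, 17 of 5368 (0.317%, 0.198 to 0.507) overlapped a BAP1 peak of C91A cells. Shared distal peaks were also wider, and the part of width was not tested. BAP1 ChIP in BAP1 knockout cells, which shows signal not due to BAP1, held only 32.5 M tags and 144 peaks. Its counts therefore do not compare with those of C91A cells. It overlapped 2 new distal peaks (0.0621%), against 10 shared distal peaks (0.466%) and 0.0401% of all peaks of the list. Both were among the lowest of all new distal peaks, at chr1:195241776-195241898 (1.55 for RNF2) and chr11:109011720-109012054 (1.43). The RNF2 knockout list holds no peak, so no overlap with it could be counted.

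Noncoding genes lay under 984 new distal peaks (30.5%), counting every gene type of the RefSeq table, against 834 shared distal peaks (38.9%). Long noncoding RNA genes took most of them, at 895 new distal peaks (27.8%, 26.3 to 29.4) and 673 shared distal peaks (31.4%, 29.4 to 33.4). The share was 29.2% over all distal peaks and 14.8% over the whole list. At the start window of such a gene the classes stood farther apart, at 94 new distal peaks (2.92%, 2.39 to 3.56) and 202 shared distal peaks (9.41%, 8.25 to 10.7), with 5.51% over all distal peaks. Shared distal peaks were wider, and width alone gives a peak more chance to touch a window; its part was not tested. Pseudogenes lay under 78 new distal (2.42%) and 151 shared distal peaks (7.04%), with 4.27% over all distal peaks and 1.94% over the whole list. Small RNA genes, among them transfer RNA genes, lay under 12 (0.372%) and 33 (1.54%). Their shares were 0.838% over all distal peaks and 0.326% over the whole list, close to that of new distal peaks. Among the 91 new distal peaks over a fold of 5, 27 (29.7%) were over a long noncoding RNA gene and 7 (7.69%, 3.78 to 15.0) over a start window.

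A single microRNA hairpin lay under a new distal peak. The peak chr9:41580926-41582166, 1241 bp wide with a fold enrichment of 4.87, overlapped Mir125b-1 inside its host transcript Mir100hg. The first BAP1 knockout library had no peak there, and the nearest peak of the second wild-type library was 204 kb away. The mature microRNAs are shown with their seed, bases 2 to 8, in capitals, from RefSeq, at chr9:41581940-41581961 and chr9:41581980-41582001 on the plus strand of GRCm38.p6.
mmu-miR-125b-5p: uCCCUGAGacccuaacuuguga
mmu-miR-125b-1-3p: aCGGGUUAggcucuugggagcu
The arms have different seeds. A hairpin lay under 1 new distal peak (0.0310%, 0.00548 to 0.176), 6 shared distal peaks (0.280%, 0.128 to 0.609) and 0.283% of all peaks of the list. Shared distal peaks were wider, and the part of width was not tested.

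The start windows under new distal peaks were intermediate in base composition. The 97 windows, of 90 genes, had a median GC content of 52.3% and a median observed-to-expected CpG ratio of 0.361. The 244 windows under shared distal peaks had 54.3% and 0.472, and the 4679 windows equally far from genes but under no peak of the list had 46.0% and 0.193. A GC content of at least 55% with a ratio of at least 0.6, the usual outline of a CpG island, was met by 6 windows under new distal peaks (6.19%), 56 under shared distal peaks (23.0%) and 12 under no peak (0.256%). Over all 11588 lncRNA windows the share was 10.7%. None of the 14 windows under new distal peaks over a fold of 4 met it, against 6 of 83 at 4 or less. The median ratio was 0.410 in those 14 windows and 0.356 in those 83. With only 14 windows, the 0 does not set the higher peaks apart.

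Short motifs were counted in the same windows on both strands. The Ets motif CCGGAAG was in 10.3% of windows under new distal peaks, 7.79% under shared distal peaks, 2.05% under no peak and 3.89% of all lncRNA windows. The E-box CACGTG was in 11.3%, 9.84%, 5.11% and 5.89% of these window sets in the same order, and Gm46609 above holds one. The octamer ATTTGCAT was in 5.15%, 0.820%, 2.27% and 1.87%, which is 5 windows under new distal peaks. The E2F motif GCGGGAA was in 4.12%, 4.51%, 0.684% and 2.11%, and CGCGCG in 6.19%, 8.61%, 0.385% and 4.16%. The AP-1 motif TGANTCA (10.3%, 8.20%, 11.3% and 9.31%), the Gata motif GATAAG (6.19%, 6.97%, 10.0% and 8.41%) and the repeats CACACACA (3.09%, 4.92%, 5.43% and 5.05%) and GAGAGAGA (4.12%, 3.28%, 5.58% and 4.97%) were not higher under new distal peaks than under no peak. Motifs rich in C and G follow base composition, whose part was not tested, and a match in a window is not a binding site.

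The mirror image, distal wild-type peaks with no BAP1 knockout peak, was smaller. The new distal peaks numbered 3222, against 666 distal peaks of the second wild-type list that overlapped no peak of either BAP1 knockout list, a ratio of 4.84. Over the whole second wild-type list, 13.7% of peaks had no BAP1 knockout overlap. Within their own list the new distal peaks reached a fold enrichment of 11.3, with 91 of 3222 over 5. Within theirs the 666 wild-type peaks reached 6.79, with 3 over 5. These values come from separate libraries and sets of unlike size, so they do not compare heights between the genotypes. Of the new distal peaks, 17 were repeated in the other library of their genotype, and of the 666, 0. The first wild-type list held 4038 peaks, 242 of them distal, against 7946 and 520 in the first BAP1 knockout list. All of those 242 overlapped a BAP1 knockout peak, so the 0 was nearly fixed in advance and the counts do not compare the genotypes. Within 1 kb of a peak of the other genotype lay 24.3% of new distal peaks and 48.9% of the 666. The second BAP1 knockout list holds 39872 peaks and the second wild-type list 28770. A longer list alone brings its peaks closer, so these shares do not compare the sets. The densest 100 kb held 24 new distal peaks and 14 of the wild-type peaks, those 14 within 14.9 kb near Chic2 on chromosome 5.

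The ratio grew with the height demanded and shrank with the length of the list. At a −log10 q of at least 5 there were 1491 new distal peaks and 156 wild-type ones, a ratio of 9.56, and at 10 there were 301 and 14, a ratio of 21.5. When the second BAP1 knockout list was shortened to its 28770 peaks of highest −log10 q, the length of the second wild-type list, 1764 new distal peaks remained against 863, a ratio of 2.04. The second BAP1 knockout and second wild-type libraries held 139 and 149 M ChIP tags and 155 and 162 M input tags, with redundant rates of 0.28 and 0.25. The part of these differences in the ratio was not tested. By the same rules, the first BAP1 knockout list held 26 new distal peaks, and the first wild-type list 0 distal peaks without a BAP1 knockout peak. These counts rest on 1 deep library of each genotype, and library and genotype cannot be told apart for the 3205 new distal peaks without a peak in the first BAP1 knockout library.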

How the data were processed

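RNF2 and BAP1 ChIP-seq peak lists of mouse embryonic stem cells were used. The submitters' processing notes name GSNAP and the build GRCm38 (mm10), and each ChIP library had been called alone against its input with MACS2 2.1.0.20150420 or, for both deeper RNF2 libraries and the RNF2 knockout, 2.1.1.20160309; the cutoff was a q-value of 0.05, as the deposited headers state. The deposited lists give each peak's pileup signal, fold enrichment (a ratio) and −log10 p and q, all computed by the authors. ChIP libraries held 32.5 to 415 M tags after filtering, per the file headers.

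Positions were handled 1-based on chromosomes 1 to 19, X and Y with python 3.11.15, pandas 2.3.3, numpy 2.4.6 and scipy 1.17.1; interval code was tested on simulated intervals. Overlap meant at least 1 bp. Genes were 21779 protein-coding and the other genes of RefSeq GRCm38.p6, after 108 entries placed on scaffolds were removed. Where a share has an interval, it is a Wilson 95% interval, and the upper limits given for a count of 0 are Wilson limits too.

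The members, gene lists and comparisons were chosen with earlier results of these data known. Named peaks are the 10 highest in fold enrichment, those with a peak in the first BAP1 knockout library or in C91A cells, the 5 widest, those at the 20 kb limit and the 3 densest stretches; the miRNA, the lncRNA starts and the runs by nearest gene were chosen after their values were seen. No genome was used, so motifs planned for peak summits were counted in lncRNA start windows of 300 bp instead. The FLAG ChIP of the protocols was not analysed here. Alternatives varied the gene distance, the overlap, the q threshold, the list length and the libraries.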

Additional observations from a re-analysis of the deposited data

How the results depend on the processing

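The number of new distal peaks was 1666 at a distance of 50 kb, 988 when every gene of the table was kept at 20 kb, 1491 and 301 at a −log10 q of at least 5 and 10, and 1764 with the list shortened to the length of the second wild-type list. The share repeated in the first BAP1 knockout library was 0.304% with every gene kept away, 2.12% when at least 50% of a peak had to be covered for it to count as shared, 1.14% and 4.98% at the stricter q values, and 0.964% with the shortened list. The share with a BAP1 peak of C91A cells was 0 at 50 kb, with every gene kept away, with wild-type peaks within 1 kb counted as shared, at both stricter q values and with the shortened list; it rests on 1 peak. The wild-type distal peaks without BAP1 knockout peak numbered 339 at 50 kb, 228 with every gene kept away, 340 within 1 kb, and 156 and 14 at the stricter q values. Leaving out 1 library at a time gave 26 to 5180 new distal peaks, 0.528% to 5.79% repeated, 0 to 0.0579% with a C91A peak and 666 to 2689 wild-type peaks. The extremes came from the second libraries: without the second wild-type library there were 5180 new distal peaks, 300 of them repeated, and without the second BAP1 knockout library 26. Without either first library the number stayed 3222. A distance of 10 kb, distance from the summit and a 1 kb margin moved the number of new distal peaks by less than 1.5 times. The repeated share could not be computed with either BAP1 knockout library left out, nor the wild-type count without the second wild-type library. Composition over whole peaks was not run, since it needs a genome. No paired analysis was possible because no result comes from a test.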
